A study of Mus musculus with 72 samples.

Results

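The genes described here are 10 liver genes through which growth hormone is known to act or which it is known to regulate: the receptor Ghr, the feedback inhibitor Socs2, the repressor Bcl6, the effector Igf1, the male-biased genes Cyp2d9 and Mup20, and the female-biased genes Cyp2a4, Atp6v0d2, Slc22a26 and Cyp17a1. Each was found as a probe set annotated with its symbol alone, taking the probe set of highest mean. All 10 were among the 22180 genes measured in this way, and all 10 were among the 13308 kept after the lowest 40% of genes by mean were left out. The genes were chosen by their known place in growth hormone action, and several by their daily average KO minus WT difference in the SIRT6 cohort, so knockout against wild type in that cohort is given as a description with no test.

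The study measured RNA in 72 mouse livers on single-colour arrays, in 2 cohorts of 36. The SIRT6 cohort carries the strain label 129 mixed and holds wild-type (WT) mice and mice with a liver-specific knockout (KO) of Sirt6. The SIRT1 cohort is C57BL/6 and holds WT mice and mice with a liver-specific KO of Sirt1. In each cohort 3 livers per genotype were taken at 0, 4, 8, 12, 16 and 20 h of zeitgeber time (ZT, counted from the start of the light phase), from animals kept in 12 h of light and 12 h of dark, so each genotype of a cohort is a set of 18 livers. The driver of the deletion, the ages and the sex were not in the labels used here. Nothing in the labels says whether replicates came from separate cages or days, so p-values measure the spread between these livers alone. In whole liver, fewer cells of a type and less RNA per cell cannot be told apart.

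Growth hormone binds its receptor on hepatocytes, which activates the kinase JAK2 and the transcription factor STAT5. STAT5 raises Igf1, the main endocrine effector of growth, and Socs2 and Cish, which damp the receptor's signal. It also lowers Bcl6, a repressor that binds many of the same sites. In mice and rats the hormone is secreted in pulses in males and more evenly in females, and this pattern sets the sex bias of many liver genes: male-biased ones such as Cyp2d9 and Mup20, and female-biased ones such as Cyp2a4, Atp6v0d2, Slc22a26 and Cyp17a1.

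STAT5 binds the palindromic motif TTCNNNGAA, which reads the same on both strands and was the single motif searched. RefSeq promoters of the assembly GRCm38.p6 were listed for 6 of the 10 genes, at 8 start sites, and the 250 bases before each start were read. Bcl6 and Slc22a26 held the motif. The windows of Ghr (both starts), Igf1, Cyp2d9 and Cyp2a4 did not hold these letters. Over all 32851 promoters, 7.02% held at least 1 match, and 8.13% of 27025 genes did. The Bcl6 start at the lower coordinates held 3 matches, which 9 of the 32851 promoters (0.0274%) equalled or exceeded. It is shown whole, and the other matches are shown with 12 bases on either side. Capitals mark the motif, and each sequence runs 5′ to 3′ on the minus strand, on which both genes lie. A match describes letters only and is not a measured site.
Bcl6, 3 matches at 168, 122 and 88 bases before the start, chr16:23981284-23981533: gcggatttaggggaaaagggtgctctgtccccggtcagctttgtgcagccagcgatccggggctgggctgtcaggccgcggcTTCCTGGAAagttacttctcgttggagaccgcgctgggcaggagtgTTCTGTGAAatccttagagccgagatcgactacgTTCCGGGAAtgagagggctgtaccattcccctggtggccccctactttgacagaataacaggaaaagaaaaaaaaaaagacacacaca
Bcl6, the other start, 1 match at 118 bases before it, chr16:23988950-23988982: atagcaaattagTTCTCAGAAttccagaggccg
Slc22a26, 1 match at 141 bases before the start, chr19:7802788-7802820: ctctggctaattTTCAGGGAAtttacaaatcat

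Levels are log2(intensity + 16) of 1 probe set, so they compare livers for a gene and not one gene with another. Hepatocyte markers averaged 11.86 to 12.44 in the 72 livers. The Y-linked Eif2s3y ran from 7.91 to 9.17, Kdm5d from 7.32 to 8.58 and Uty from 7.89 to 9.08, while Xist ran from 5.54 to 6.44, around the level of 6.00 under which genes were left out. The Sirt6 probe set was higher, not lower, in the KO-labelled livers of its cohort (7.89 ± 0.10 against 7.32 ± 0.18, SD, n = 18 each). The Sirt1 probe set was alike in its cohort (8.74 ± 0.11 in KO, 8.74 ± 0.18 in WT). The position of both probe sets against the deletions was not stated in what was used here, so they check nothing, and the SIRT6 livers are called WT-labelled and KO-labelled. The 99th percentiles of the arrays did not overlap between the cohorts (3217 to 3430 in the SIRT6 cohort, 3440 to 3641 in the SIRT1 cohort), so levels are compared within a cohort. In the SIRT6 cohort the lowest correlation between replicate arrays was 0.90, against 0.97 in the SIRT1 cohort.

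Ghr, the receptor itself (probe set 17315635, Entrez 14600), was steady. In the SIRT6 cohort the WT-labelled livers ran from 11.35 through a median of 11.55 to 11.82 and the KO-labelled ones from 11.27 through 11.59 to 11.74, a difference in daily average of 0.01 ± 0.05 (log2, SE). SIRT1 WT livers ran from 11.54 through 11.69 to 11.85 and KO livers from 11.52 through 11.61 to 11.83. Within each cohort the genotypes overlap over most of their range. The SIRT1 KO mean lay 0.06 ± 0.03 below WT (−0.06, adjusted p = 0.29, limma with Benjamini-Hochberg adjustment over all genes), and 15 of 18 KO livers lay below the WT mean of their time.

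Socs2, the feedback inhibitor (probe set 17274184, Entrez 216233), differed more between mice of the same group than between the groups. WT-labelled livers of the SIRT6 cohort ran from 6.46 through 9.19 to 10.76, a 19.6-fold range on this scale, and KO-labelled ones from 7.98 through 8.93 to 10.04. The 3 WT-labelled livers at ZT0 alone read 6.46, 9.19 and 10.76. SIRT1 WT livers ran from 8.11 through 9.53 to 10.92 and KO livers from 6.72 through 9.40 to 10.07, with a KO minus WT difference of −0.28 ± 0.24 (adjusted p = 0.55, limma). Its 95% confidence interval in fold, 0.58 to 1.15, leaves room for a sizeable fall or a slight rise. A second Socs2 probe set (17244486) followed the first across livers once group means were removed, with r = 0.96 (SIRT6 cohort) and 0.81 (SIRT1 cohort) over 36 livers each. The spread between replicate livers was therefore read by both probe sets.

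Bcl6, the repressor that growth hormone lowers (probe set 17329433, Entrez 12053), was as variable. SIRT6-cohort WT-labelled livers ran from 7.06 through 8.60 to 10.14 and KO-labelled livers from 7.06 through 8.57 to 10.06. The 3 KO-labelled livers at ZT0 read 7.06, 9.82 and 8.63. SIRT1 WT livers ran from 7.63 through 9.04 to 10.59 and KO livers from 7.36 through 9.30 to 10.54. The genotypes overlap over nearly the whole range in both cohorts. KO minus WT was −0.11 ± 0.30 under the SIRT6 label and −0.07 ± 0.29 under the SIRT1 label (adjusted p = 0.92 for SIRT1, limma), where the interval ran from 0.64-fold to 1.43-fold.

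**Figure D1:**
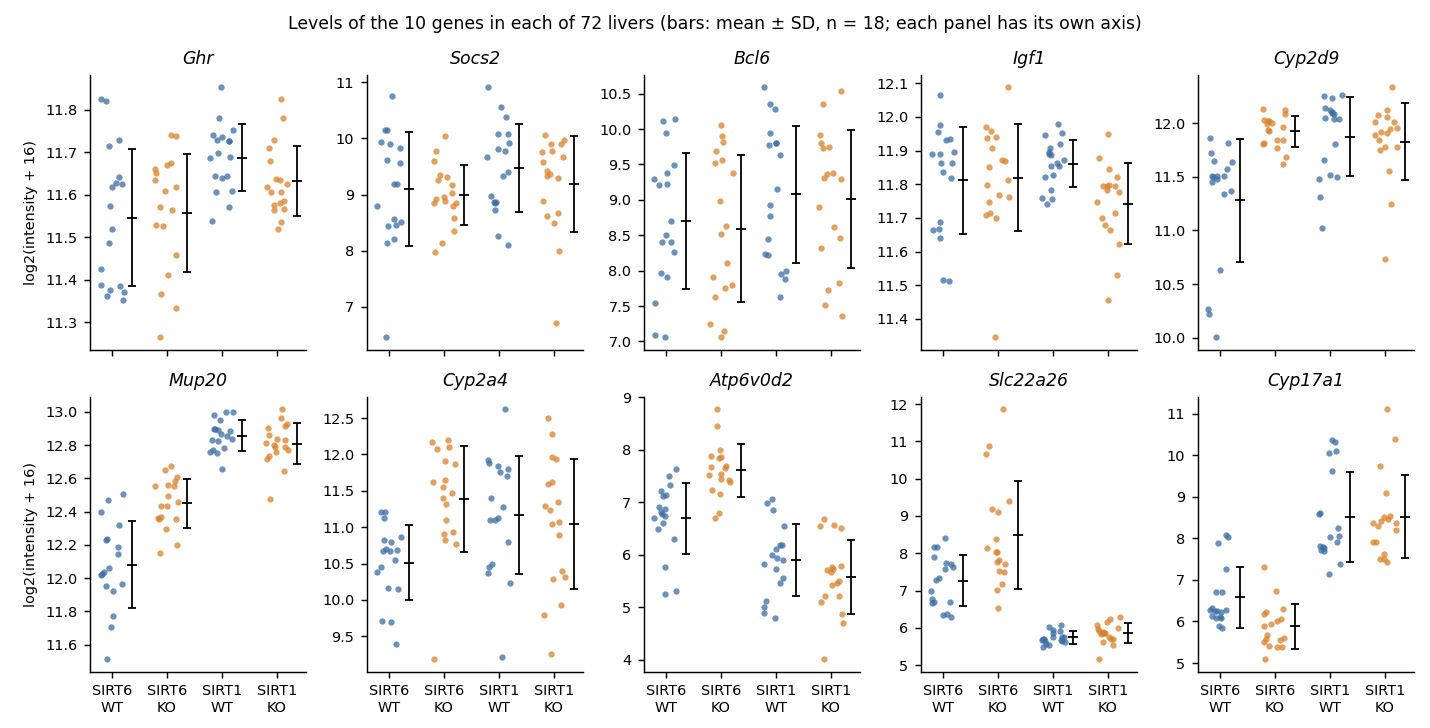
Levels of the 10 genes as log2(intensity + 16), 1 point per liver, by cohort and genotype, with bars for mean ± SD of 18 livers; each panel has its own vertical axis. Cyp2d9, Mup20, Cyp2a4, Atp6v0d2 and Slc22a26 sit higher and Cyp17a1 lower in the KO-labelled livers of the SIRT6 cohort. In the SIRT1 cohort the genotypes overlap, though for Igf1 7 of 18 KO livers lie below every WT liver.

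Igf1, the growth factor (probe set 17236288, Entrez 16000), was nearly equal between the SIRT6 genotypes, at 11.81 ± 0.16 in WT-labelled and 11.82 ± 0.16 in KO-labelled livers (SD, n = 18 each). SIRT1 WT livers ran from 11.74 through 11.87 to 11.98 and KO livers from 11.46 through 11.78 to 11.95. The mean was lower in KO at all 6 times, 15 of 18 KO livers lay below the WT mean of their time, and 7 lay below every WT liver. KO minus WT was −0.12 ± 0.03, or 1.09-fold lower (0.88 to 0.96 in fold, 95% interval). It did not pass the threshold of an adjusted p of 0.05 (unadjusted p = 0.0012, adjusted p = 0.051, limma over 36 livers). It passed in 8 of the 36 fits that left out 1 liver, with adjusted p from 0.021 without KO ZT12 replicate 3 to 0.047 without KO ZT16 replicate 2; the others were WT ZT0 replicates 1 and 2, WT ZT4 replicate 2, WT ZT12 replicate 2, KO ZT0 replicate 1 and KO ZT4 replicate 2. The other SIRT1 fits with 1 liver left out reached an adjusted p of up to 0.095.

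Cyp2d9, a male-biased cytochrome P450 of steroid hydroxylation (probe set 17313583, Entrez 13105), ran from 10.005 through 11.50 to 11.86 in WT-labelled livers of the SIRT6 cohort and from 11.62 through 11.95 to 12.13 in KO-labelled ones. All 18 KO-labelled livers lay above the WT-labelled mean of their time, and 11 lay above every WT-labelled liver. The difference was 0.64 ± 0.15, or 1.56-fold. A group of 4 WT-labelled livers stood apart below the rest: ZT4 replicate 1 at 10.005, ZT20 replicate 1 at 10.22, ZT8 replicate 2 at 10.27 and ZT0 replicate 2 at 10.63, while the other 14 ran from 11.34 to 11.86. Without these 4 livers, set aside after their values were seen, the difference was 0.34 ± 0.05. Across SIRT1 livers Cyp2d9 ran from 11.02 through 12.05 to 12.26 in WT and from 10.74 through 11.92 to 12.34 in KO livers, with overlap throughout (KO minus WT −0.04 ± 0.11, 95% interval 0.84-fold to 1.13-fold).

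Mup20, the major urinary protein darcin, a male pheromone (probe set 17426086, Entrez 381530), ran from 11.51 through 12.05 to 12.50 in WT-labelled and from 12.15 through 12.45 to 12.67 in KO-labelled livers of the SIRT6 cohort. The mean was higher in KO-labelled livers at all 6 times and in 17 of 18 livers, by 0.37 ± 0.07 or 1.29-fold. The sets overlap between 12.15 and 12.50. SIRT1 livers were closer together, at 12.66 to 13.00 in WT and 12.48 to 13.02 in KO, with KO minus WT at −0.05 ± 0.04 (0.92-fold to 1.02-fold).

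The female-biased genes did not share a direction in the SIRT6 cohort. Cyp2a4, a testosterone hydroxylase (probe set 17475399, Entrez 13086), ran from 9.39 through 10.67 to 11.21 in WT-labelled and from 9.19 through 11.51 to 12.19 in KO-labelled livers. Of the KO-labelled livers 12 lay above every WT-labelled one, and 1, ZT4 replicate 1 at 9.19, lay below every one. The difference was 0.88 ± 0.18, or 1.84-fold. Under the SIRT1 label WT livers ran from 9.21 to 12.62 and KO livers from 9.25 to 12.50, with KO minus WT at −0.13 ± 0.17 (0.71-fold to 1.17-fold).

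Atp6v0d2, a subunit of the proton pump V-ATPase (probe set 17423577, Entrez 242341), ran from 5.26 through 6.80 to 7.63 in WT-labelled and from 6.71 through 7.60 to 8.78 in KO-labelled livers of the SIRT6 cohort. It was higher in KO-labelled livers at all 6 times and in 17 of 18 livers, by 0.92 ± 0.17 or 1.89-fold. SIRT1 means went the other way, 5.90 ± 0.69 in WT and 5.58 ± 0.70 in KO, without passing the test (−0.32 ± 0.18, adjusted p = 0.37, limma; 0.62-fold to 1.04-fold). Both SIRT1 means lie under the filter level of 6.00, so the gene was tested there only because the SIRT6 cohort is higher. Whether the effects of the 2 knockouts differ was not tested, because the SIRT6 difference chose the gene.

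Slc22a26, an organic anion transporter (probe set 17362369, Entrez 236149), showed the widest range of the 10 genes in KO-labelled livers of the SIRT6 cohort, from 6.53 through 8.04 to 11.86, a 40.3-fold span. WT-labelled livers ran from 6.28 through 7.31 to 8.42. The 3 highest KO-labelled livers were ZT8 replicate 1 at 11.86, ZT4 replicate 1 at 10.88 and ZT12 replicate 3 at 10.67. Their group mates at ZT8 read 8.03 and 7.54. The mean was higher in KO-labelled livers at 5 of 6 times, from 1.31 at ZT12 to 1.80 at ZT8, and lower at ZT20 by −0.45, giving 1.22 ± 0.36 over the day. Across the SIRT1 cohort the gene stayed within 5.16 to 6.28 in all 36 livers, with means of 5.75 in WT and 5.86 in KO. Both lie under the filter level of 6.00 and the gene was tested there only because the SIRT6 cohort is higher, so the KO minus WT value of 0.11 ± 0.07 shows little about the SIRT1 knockout.

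Cyp17a1 (probe set 17365410, Entrez 13074), the steroid 17-alpha-hydroxylase, had the lower mean in KO-labelled livers of the SIRT6 cohort, at 5.88 ± 0.54 against 6.58 ± 0.73 (SD, n = 18 each); the first lies under the filter level of 6.00. WT-labelled livers ran from 5.84 through 6.27 to 8.09 and KO-labelled ones from 5.09 through 5.78 to 7.31, and 9 KO-labelled livers lay below every WT-labelled one. By time, ZT4 had a difference of −1.50, the times before and after it −1.14 each, ZT12 one of −0.53, and ZT20 one of 0.12; the test of a difference in rhythm did not pass (adjusted p = 0.51, limma). The daily average was −0.70 ± 0.20. The 4 WT-labelled livers lowest in Cyp2d9 were the highest of their set in Cyp17a1, at 7.25 to 8.09, with the other 14 at 5.84 to 6.72. Without them the daily average was −0.33 ± 0.12. SIRT1 WT livers ran from 7.13 through 8.04 to 10.36 and KO livers from 7.43 through 8.37 to 11.11, with means of 8.51 and 8.52.

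Of the 10 genes, 6 passed the threshold in the SIRT6 cohort, which is how the set was chosen and is no result, beside 6.61% of all genes tested (3.39% higher and 3.22% lower in KO-labelled livers). In the SIRT1 cohort 0 of 10 passed by limma, and 1, Igf1, had an unadjusted p under 0.05. There 2.27% of all genes passed, and 2399 of 13308 had an unadjusted p under 0.05. A count of 0 of 10 is near the 2.27% of all genes and says nothing particular about the members. The median difference of all genes was 0.0035 for SIRT6 and −0.0017 for SIRT1. At single times in the SIRT1 cohort, with 1 correction over genes and times, 0 of the 10 genes and 0 of all genes passed (0%). Of the members' 60 such tests, 5 (8.33%) had an unadjusted p under 0.05, near the 8.22% of all 79848 tests. The smallest was that of Cyp17a1 at ZT12, where KO livers read 8.42, 11.11 and 10.39 and WT livers 7.38, 7.69 and 7.76 (difference 2.36, adjusted p = 0.33, limma).

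**Figure D2:**
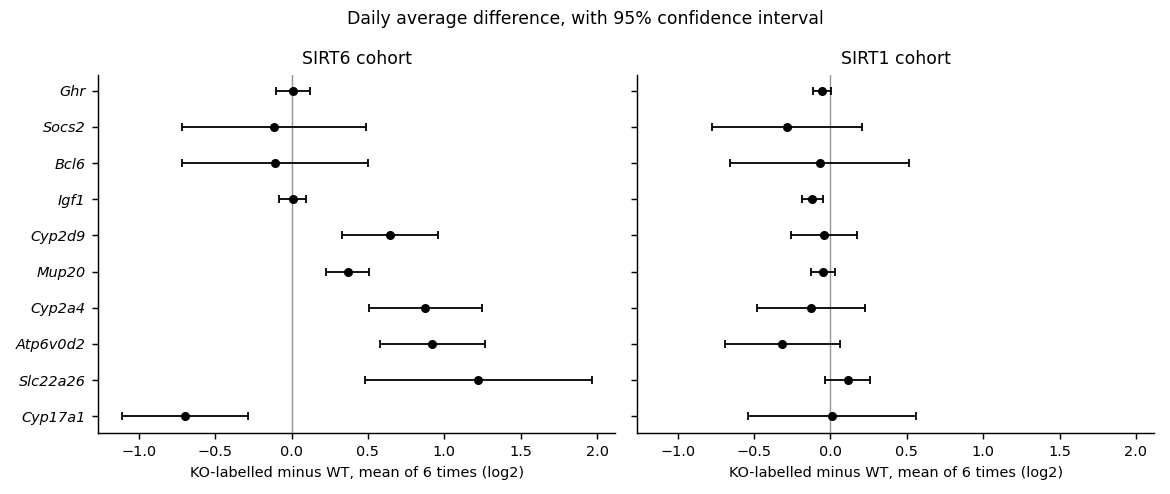
KO-labelled minus WT difference of the 10 genes averaged over the 6 times (horizontal axis, log2), with 95% confidence intervals from limma, for the SIRT6 cohort (left) and the SIRT1 cohort (right). In the SIRT1 panel the interval of Igf1 (−0.19 to −0.05) lies below 0, and those of the other 9 genes cross it.

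Levels of marker lists were set beside the genotypes, starting with the SIRT6 cohort. Genes of 1 list may vary together, so a count within a list is not a count of independent observations. All 10 Kupffer cell markers averaged higher in KO-labelled livers, with 0 of 10 past the threshold and a median of 0.19. Their mean level per liver ran from 7.60 to 10.24 in WT-labelled livers (9.21 ± 0.76, SD) and from 7.96 to 10.54 in KO-labelled livers (9.41 ± 0.59). Stellate cell markers were higher in mean for 8 of 8 and lymphocyte markers for 5 of 5, again with 0 past the threshold. Endothelial markers were higher for 3 of 8, bile duct markers for 1 of 3 and core clock genes for 4 of 13, also with 0 past it. Of 9 hepatocyte markers 1 averaged higher (median −0.03) and of 4 sex chromosome genes all 4 (median 0.11), with 0 past the threshold in either list. Among SIRT1 livers, 0 of 10 Kupffer and 0 of 8 endothelial markers averaged higher in KO (medians −0.12 and −0.06). Of the other cell types, 6 of 8 stellate, 3 of 5 lymphocyte, 3 of 9 hepatocyte and 2 of 3 bile duct markers did. The part of these lists in the members' differences was not tested. The mean of 20 acute phase genes ran from 10.72 to 12.00 in WT-labelled and from 11.03 to 12.46 in KO-labelled livers. With that mean as a covariate the SIRT6 differences were 0.68 for Cyp2d9, 0.33 for Mup20, 0.99 for Cyp2a4, 0.91 for Atp6v0d2, 1.12 for Slc22a26 and −0.73 for Cyp17a1.

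A 24 h cosine was fitted to each set of 18 livers, with amplitude as fitted peak minus trough. Of 40 tests (10 genes, 4 sets), 5 passed. In WT-labelled livers of the SIRT6 cohort Bcl6 alone passed (amplitude 1.94 ± 0.43, peak at ZT3.07, adjusted p = 0.021, limma), where 10.1% of all genes did. Bcl6 lay between 9.21 and 10.14 at ZT4 and between 7.06 and 7.91 at ZT16, without overlap, but without WT ZT16 replicate 3 the count of rhythmic members in this set fell to 0. In the KO-labelled set, where 10.6% of all genes passed, Igf1 (amplitude 0.31 ± 0.08, peak at ZT18.3, adjusted p = 0.038) and Cyp17a1 (1.1 ± 0.24, peak at ZT17.8, adjusted p = 0.018) passed by limma. Cyp17a1 stayed at 5.09 to 6.00 from ZT0 to ZT12 in these livers and lay at 6.07 to 7.31 at ZT16 and ZT20. Its mean in this set, 5.88, lies under the filter level of 6.00. The call of Igf1 ended without any 1 of KO ZT0 replicate 2, KO ZT4 replicates 1, 2 and 3, KO ZT8 replicate 2, KO ZT16 replicates 2 and 3, and KO ZT20 replicates 1 and 3, which left 1 rhythmic member.

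In SIRT1 WT livers, where 18.3% of all genes passed, Atp6v0d2 was rhythmic (1.26 ± 0.32, peak at ZT10.0, adjusted p = 0.022, limma), on levels whose mean lies under the filter, and the count fell to 0 without WT ZT12 replicate 3. In SIRT1 KO livers, where 23.2% passed, Cyp2a4 was rhythmic with the largest swing of the 10 genes (2.20 ± 0.24, peak at ZT13.3, adjusted p = 7.9e-06, limma). Its 3 livers read 9.25, 10.40 and 9.80 at ZT4 and 11.62, 12.50 and 12.28 at ZT12. All KO livers at ZT8, ZT12 and ZT16 (11.23 to 12.50) lay above all at ZT0 and ZT4 (9.25 to 10.40). Atp6v0d2 joined it when any 1 of KO ZT0 replicates 2 and 3, KO ZT4 replicates 2 and 3, KO ZT8 replicate 2 or KO ZT12 replicate 1 was left out, and Cyp2d9 without KO ZT16 replicate 3 or KO ZT12 replicate 1, giving 2 or 3 members (3 also without KO ZT4 replicate 2, with Bcl6). Per set, 1 of 10 genes passed in 3 sets and 2 of 10 in the KO-labelled SIRT6 set, beside 10.1% to 23.2% of all genes, so these counts say nothing particular about the members.

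For 0 of the 10 genes did a difference in rhythm between genotypes pass in either cohort by limma, where 0.00751% of all genes (1 gene) passed in the SIRT6 and 0% in the SIRT1 cohort. The smallest p was that of Cyp17a1 in the SIRT6 cohort (unadjusted p = 0.014, adjusted p = 0.51); it was the 1 member with an unadjusted p under 0.05 there, beside 1098 of all genes, and the SIRT1 cohort had 0 beside 965.

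Because the genotypes were not shown to differ in rhythm, both were then fitted together, with genotype as a term, over the 36 livers of a cohort. This fit was added after the data were examined. Cyp2a4 was rhythmic in both cohorts, with a peak near the start of the dark phase: ZT14.2 in the SIRT6 cohort (amplitude 0.94 ± 0.25, adjusted p = 0.014, limma) and ZT13.3 in the SIRT1 cohort (1.67 ± 0.27, adjusted p = 2.3e-05). Atp6v0d2 passed in both as well, with a peak late in the light phase, at ZT7.75 (0.94 ± 0.23, adjusted p = 0.0067, limma) and ZT9.89 (1.20 ± 0.24, adjusted p = 0.00058, limma). The latter rests on SIRT1 levels under the filter, where the gene was tested only because the SIRT6 cohort is higher. That SIRT1 fit is therefore given as a description. Igf1 was rhythmic in the SIRT6 cohort, with a peak at ZT18.5 and a small swing (0.28 ± 0.06, adjusted p = 0.0020), and not in the SIRT1 cohort (0.10 ± 0.04, adjusted p = 0.15). So 3 of the 10 genes passed where 26.4% of all genes did, and 2 of 10 where 38.8% did. Leaving out each of the 36 livers in turn kept the adjusted p of Cyp2a4 (limma) at 0.0066 to 0.026 in the SIRT6 and 1.6e-06 to 7.0e-05 in the SIRT1 cohort. That of Atp6v0d2 stayed at 0.0028 to 0.018 in the SIRT6 cohort and, on the SIRT1 levels under the filter, at 0.00025 to 0.0014. By an F test over the 6 times in place of the cosine, Cyp2a4 did not pass in the SIRT6 cohort (adjusted p = 0.094, limma).

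**Figure D3:**
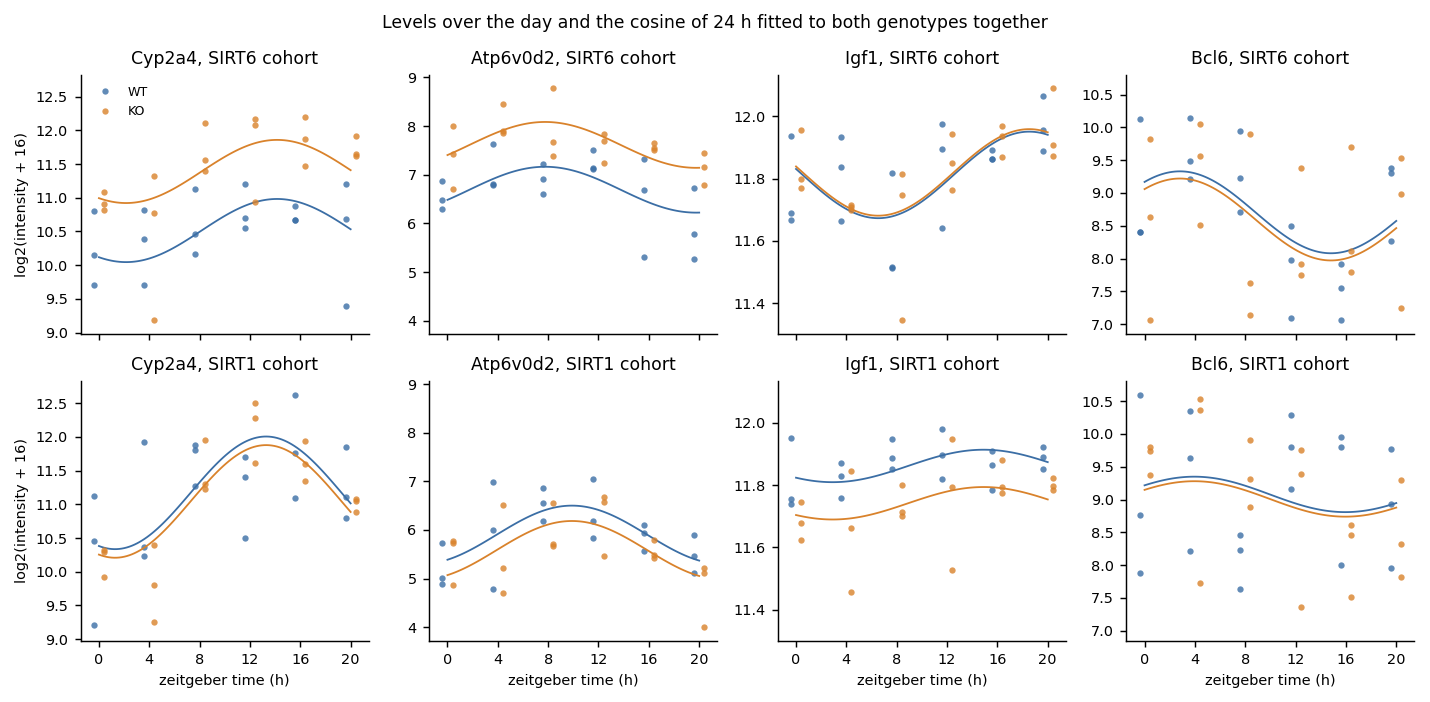
Levels (vertical axis, log2(intensity + 16)) by zeitgeber time in h for Cyp2a4, Atp6v0d2, Igf1 and Bcl6, 1 point per liver, WT blue and KO orange, shifted slightly sideways; the lines are the 24 h cosine fitted to both genotypes together around each genotype's mean. Cyp2a4 peaks at ZT14.2 and ZT13.3 and Atp6v0d2 at ZT7.75 and ZT9.89 in the SIRT6 and SIRT1 cohorts, while the Bcl6 points scatter widely at nearly every time.

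The 10 genes fell apart by how much mice of one group differed. The SD within groups of 3 livers was 0.93 for Socs2 and 0.94 for Bcl6 in the SIRT6 cohort, above 98.8% of genes in each case, and 0.80 and 0.96 in the SIRT1 cohort, above 99.7% and 99.8%. The median gene had an SD of 0.17 and 0.16. The other Socs2 probe set had a smaller SD, of 0.49 and 0.38, so the size of the spread depends on the probe set. Cyp17a1 (0.63 and 0.90), Cyp2a4 (0.57 and 0.58) and Atp6v0d2 (0.53 and 0.61) also varied widely in both cohorts. Slc22a26 did so in the SIRT6 cohort (1.15, above 99.4% of genes), with 0.23 in the SIRT1 cohort. By contrast, Ghr (0.16 and 0.08) and Igf1 (0.13 and 0.10) lay under the median gene's SD in both cohorts. The readings of the receptor and the growth factor were thus steady between mice of a group in which Socs2 and Bcl6 spanned several-fold ranges. By mean level, Ghr and Igf1 stood at percentiles 98.8 and 99.1 of genes, and Socs2 and Bcl6 at 87 and 83.6. Spreads were ranked against all genes and not against genes of like level, so the part of signal level in this difference was not tested.

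**Figure D4:**
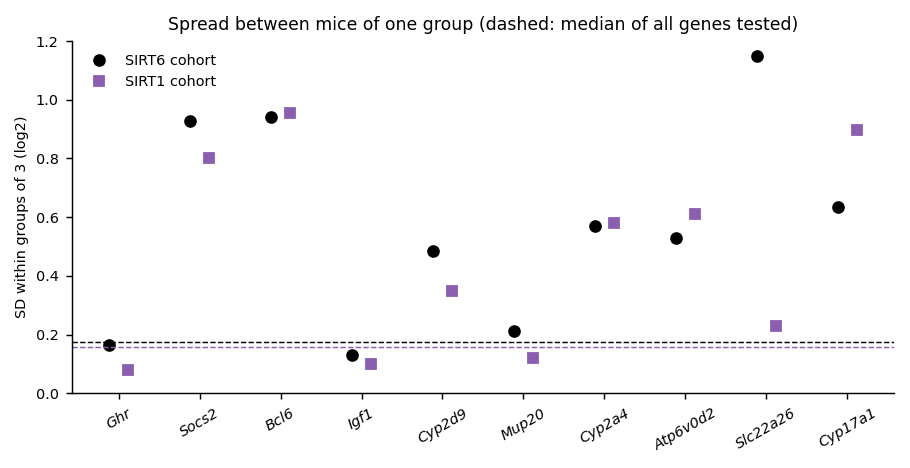
SD between livers of the same group of 3, pooled over the 12 groups of a cohort (vertical axis, log2, starting at 0), for each gene in the SIRT6 (circles) and SIRT1 (squares) cohort; dashed lines give the median of all 13308 genes (0.17 and 0.16). Socs2 and Bcl6 lie between 0.80 and 0.96, and Ghr and Igf1 at or below 0.16.

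Whether the genes varied together between mice of one group was examined by removing the 12 group means of a cohort and correlating the 36 deviations, with permutation of livers within groups (100000 draws, two-sided) and adjustment over the 45 pairs. Socs2 and Bcl6 ran opposite to each other. In the SIRT6 cohort Pearson's r was −0.54 (p = 0.0024, adjusted p = 0.036 by permutation) and Spearman's rho −0.60 (p = 0.00069, adjusted p = 0.022 by permutation). In the SIRT1 cohort r was −0.53 and rho −0.55, with adjusted p = 0.097 and 0.098 by permutation, which did not pass (unadjusted p = 0.012 and 0.0065). The 3 WT-labelled livers at ZT0 give an instance: Socs2 read 6.46, 9.19 and 10.76 where Bcl6 read 10.12, 8.41 and 8.41. Without the 2 livers farthest from the median of Socs2, r was −0.50 and −0.51. Within genotypes r was −0.76 in WT and −0.50 in KO for the SIRT6 cohort, and −0.73 in WT and −0.30 in KO for the SIRT1 cohort (18 livers each).

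Cyp2d9 and Cyp17a1, of opposite sex bias, ran opposite too. In the SIRT1 cohort r was −0.78 and rho −0.76 (p = 0.00083 and 0.00052, adjusted p = 0.031 and 0.023 by permutation), with −0.89 in WT and −0.62 in KO livers and −0.79 without the 2 farthest livers. In the SIRT6 cohort this pair passed as well (adjusted p = 0.036 for r and 0.022 for rho by permutation), but the 4 WT-labelled livers named above stand apart as a cluster, so no pooled r is given. Among the other 14 WT-labelled livers r was −0.07 and in the 18 KO-labelled livers −0.29, so the relation rests on those 4 livers there. Igf1 with Cyp17a1 passed in the SIRT6 cohort too (r = 0.61 and rho = 0.60, adjusted p = 0.036 and 0.030 by permutation, r = 0.63 without the 2 farthest). Without the 4 livers its r was 0.29 over 32 livers, at 0.01 in the other 14 WT-labelled and 0.39 in the 18 KO-labelled livers. In the SIRT1 cohort r of this pair was −0.09 (adjusted p = 0.86 by permutation). Socs2 with Bcl6 stayed at r = −0.50 in the SIRT6 cohort without the 4 livers. Cyp2d9 with Cyp2a4 passed in the SIRT1 cohort (r = −0.61, rho = −0.61, adjusted p = 0.031 and 0.041 by permutation, −0.62 without the 2 farthest). This pair did not pass in the SIRT6 cohort (r = −0.21, rho = −0.10, adjusted p = 0.59 and 0.76 by permutation). There r was −0.46 in WT-labelled and 0.57 in KO-labelled livers, of opposite sign. Socs2 with Igf1 passed in the SIRT6 cohort by rho alone (rho = 0.61, adjusted p = 0.022; r = 0.47, adjusted p = 0.12, both by permutation). In all, 3 of 45 pairs passed by Pearson's r in the SIRT6 and 2 of 45 in the SIRT1 cohort. The share of pairs that would pass among all genes was not computed, so these counts say nothing particular about the members.

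**Figure D5:**
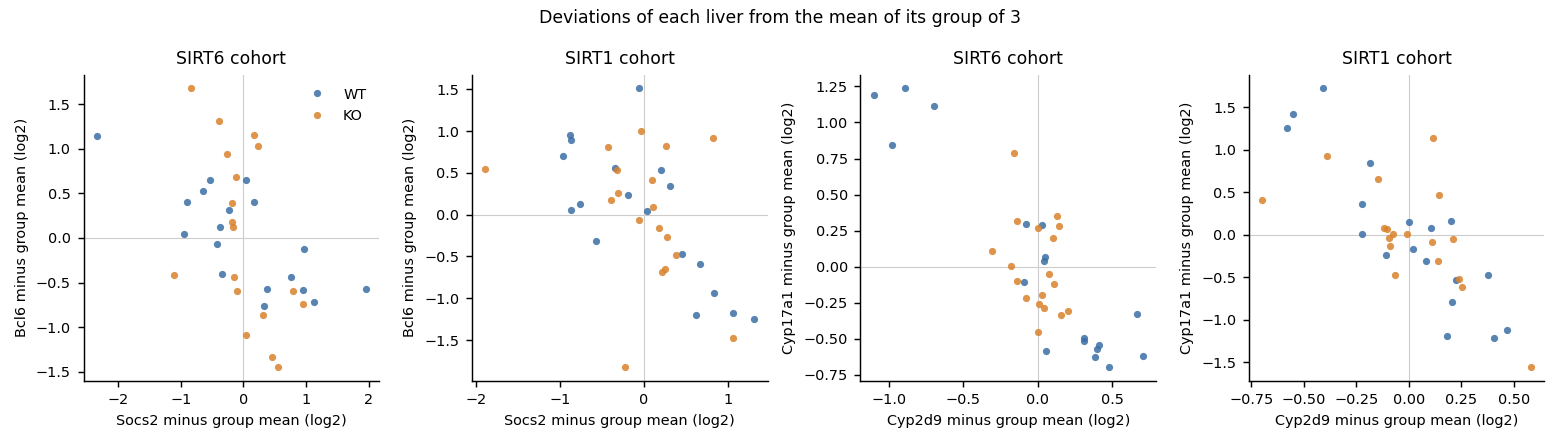
Deviation of each liver from the mean of its group of 3 (log2), Socs2 against Bcl6 (left pair of panels) and Cyp2d9 against Cyp17a1 (right pair), by cohort, WT blue and KO orange. Socs2 and Bcl6 slope downwards in both cohorts (r −0.54 and −0.53), and in the SIRT6 panel of Cyp2d9 the 4 WT-labelled livers at the upper left carry the slope.

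The genes most like each member were ranked by Pearson's r over the 72 livers with cohort means removed, a description in which livers share genotype, time and array. Socs2 was most like Onecut1 (r = 0.64), which encodes the growth hormone responsive factor HNF6, and the mitochondrial carrier Slc25a30 (0.62; 0.31 in the SIRT6 and 0.82 in the SIRT1 cohort). The gene most opposite to Socs2 among those tested was Bcl6 (−0.50). Onecut1 was also the gene most opposite to Bcl6 (−0.81), and the transcription factor Atoh8 (0.57) and the co-regulator Cited2 (0.54) were most like Bcl6. Cyp2d9 was most like Nxpe2 (0.84) and the male-biased steroid dehydrogenase Hsd3b5 (0.81), and most opposite to Cyp17a1 (−0.75). Cyp17a1 was most like the peptide transporter Slc15a1 (0.81) and the protocadherin Pcdh20 (0.81) and most opposite to Nxpe2 (−0.88), with r within each cohort between −0.90 and −0.88 for the last. Without the 4 WT-labelled livers of low Cyp2d9 (68 livers left), r fell to 0.56 for Cyp2d9 with Hsd3b5, and was 0.80 with Nxpe2 and −0.71 with Cyp17a1. For Cyp17a1 it was then 0.76 with Slc15a1, 0.81 with Pcdh20 and −0.86 with Nxpe2. Cyp2a4 was most like Susd1 (0.74) and Serpina6, the corticosteroid-binding globulin (0.72). Atp6v0d2 was most like Haus7 (0.74) and Impg2 (0.66), Ghr was most like Slc22a28 (0.76) and the cytochrome Cyb5a (0.73), and Igf1 was most like Olfr622 (0.67) and the thioesterase Acot13 (0.63). For Mup20 (Cyp2d12 at 0.74, Nuggc at 0.69) and Slc22a26 (Sult2a7 at 0.65, Gsn at 0.63) the likeness came from the SIRT6 cohort, with r of 0.19, 0.32, 0.20 and 0.04 in the SIRT1 cohort. Most opposite genes were named after their values were seen.

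Cish, a STAT5 target and close relative of Socs2, was then set against Socs2 and Bcl6 with group means removed, 4 relations chosen after the data were examined and adjusted among themselves. Cish ran opposite to Bcl6 with r = −0.79 and rho = −0.78 in the SIRT6 cohort (adjusted p = 0.00016 and 0.00028 by permutation) and r = −0.66 and rho = −0.59 in the SIRT1 cohort (adjusted p = 0.0051 and 0.0095). Onecut1, ranked on these same livers and so given with no test, had r = −0.88 and −0.78 with Bcl6 and 0.64 and 0.76 with Socs2 on this scale. Cish with Socs2 did not pass (r = 0.29 and 0.40, adjusted p = 0.11 and 0.061; rho = 0.27 and 0.29, adjusted p = 0.15 each, by permutation). Without the 2 livers farthest in Cish, its r with Bcl6 was −0.77 and −0.68. The Cish level itself ran from 5.003 to 8.72 and from 5.13 to 9.19 in the WT-labelled and KO-labelled livers of the SIRT6 cohort, and from 4.95 to 9.06 and 4.92 to 8.73 in SIRT1 WT and KO livers.

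Few other genes of the pathway passed the test between genotypes, beside 6.61% of all genes in the SIRT6 and 2.27% in the SIRT1 cohort. With 10 to 13 genes in a list, such counts say nothing particular about the pathway. Of 11 tested genes of growth hormone receptor signalling beside the members, 0 passed in the SIRT6 cohort by limma (Jak2 −0.02, Stat5a 0.04, Stat5b 0.09, Cish 0.17, Socs3 0.25). Under the SIRT1 label 1 fell, the cytokine signalling inhibitor Socs1 (−0.23 ± 0.06, adjusted p = 0.040, limma, 15 of 18 KO livers below the WT mean of their time). Of 10 genes of the IGF axis, among them Igfals and Igfbp1 to Igfbp7, 0 passed in either cohort, and likewise 0 of 13 liver factors around growth hormone, such as Hnf4a (−0.03 and 0.00), Cux2 (−0.02 and −0.05) and Onecut1 (−0.21 and −0.34). The medians of these lists lay between −0.03 and 0.06 in both cohorts.

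The lists of sex-biased genes, like those above, were chosen with earlier results of these data known. Their counts and p-values are therefore no independent support. Over all genes tested, 6.61% passed in the SIRT6 and 2.27% in the SIRT1 cohort, with median differences of 0.0035 and −0.0017. Of 11 female-biased genes tested beside the members, 9 averaged higher in the KO-labelled livers of the SIRT6 cohort (median 0.32). Among SIRT1 livers 3 of 11 had the higher mean in KO (median −0.09), and Cyp4a14, a fatty acid hydroxylase, fell (−1.84 ± 0.47, adjusted p = 0.036, limma, 16 of 18 livers). In the SIRT6 cohort Cyp4a14 averaged higher in KO-labelled livers without passing (1.58 ± 0.57, adjusted p = 0.10, limma). Its SD within groups was wide, at 1.82 in the SIRT6 and 1.58 in the SIRT1 cohort. Of 25 male-biased genes, 12 averaged higher in the KO-labelled livers of the SIRT6 cohort (median −0.01). Cyp2u1, a fatty acid hydroxylase, rose in all 18 livers (1.11 ± 0.12, adjusted p = 2.0e-07, limma), Mup21 rose (0.94 ± 0.29, adjusted p = 0.049) and the complement component C6 fell (−0.50 ± 0.12, adjusted p = 0.011). Hsd3b5, the gene second most like Cyp2d9, had a difference of 1.83 that did not pass (adjusted p = 0.073, limma). Mup21 rose in the SIRT1 cohort too (0.60 ± 0.13, adjusted p = 0.017, limma) and Cyp4a12b, a fatty acid hydroxylase, fell (−0.45 ± 0.09, adjusted p = 0.0079). Other acute phase or clock genes that passed were Orm3 (1.53 ± 0.34, SIRT6 cohort), Apcs (−0.41 ± 0.08, SIRT1 cohort) and Hlf (0.21 ± 0.05, SIRT1 cohort). Cyp2a4, Cyp2d9 and the Mup genes belong to families of near-identical copies, whose RNAs a probe set may not separate.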

How the data were processed

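The deposited value table holds linear probe set intensity for 41345 probe sets, made by the authors with Affymetrix Expression Console 1.1.1 and PLIER 2.0, per the submitters' processing notes; the normalization settings and the build were not stated in what was used here. Probe sets with 1 gene symbol (23521) were named through the platform annotation, several symbols (1814) or none (16010) were not. Groups came from the sample titles, and each column was matched to its sample by name. Values were taken as log2(intensity + 16). For each cohort, limma 3.58.1 (R 4.3.3) fitted 12 group means with an intensity trend; KO minus WT, 24 h cosines and their genotype differences were adjusted by Benjamini-Hochberg over 13308 genes. The steps were tested on simulated data. Members and the 14 gene lists were chosen with earlier results of these data known. Named genes were the members, list genes past the threshold (up to 4 per list and cohort), sex and target genes and each member's 2 most like genes without predicted names; other names were chosen after their values were seen. A list gene that the rule names is not reported here. The number of arrays limits the precision.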

Additional observations from a re-analysis of the deposited data

How the results depend on the processing

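Alternatives were quantile normalization, equal array medians, pseudocounts of 1 and 64, no filter or the lowest 60% left out, no intensity trend, array weights, the replicate number as a block, 1 fit of 72 arrays, the upper quartile or acute phase mean as covariate, an F test over the 6 times, the other Socs2 probe set, and leaving out each liver. Of the 10 genes, 1 (Igf1) passed in the SIRT1 daily average with the lowest 60% left out, with array weights and with the acute phase covariate; leaving out single livers gave 0 to 1. At single times array weights gave 1 (Cyp17a1). Rhythmic members in the SIRT6 KO-labelled set numbered 1 with equal medians, no filter or no trend, 4 with array weights and 0 by the F test (1 to 3 without single livers). In the SIRT1 KO set they numbered 2 with equal medians or the F test (1 to 3 without single livers). Both WT sets fell to 0 by the F test, and the SIRT1 WT set also with the lowest 60% left out, which removes Atp6v0d2 (0 to 1 without single livers in either). With both genotypes together, the SIRT1 count fell to 1 with that filter. Pairs in the SIRT6 cohort numbered 7 with equal medians and 2 with quantile normalization. Signs of the 6 SIRT6 differences described as higher or lower were kept in every alternative run, but Cyp17a1 ran from −0.88 to −0.44 (pseudocount 64). The SIRT6 difference chose these genes, so how often signs and calls held is a description and no support for them. Of those 6 calls, Cyp17a1 kept its own in 10 of 12 settings and 25 of 36 fits without 1 liver. Slc22a26 kept its own in 10 of 11 and 19 of 36.

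The replicate numbers did not pair the livers (mean r of same-numbered livers 0.0097 and −0.0033; 10 and 13 of 36 livers correlated best with their own number). With the number as a block, Igf1 in the SIRT1 cohort stood at −0.12 ± 0.03 (adjusted p = 0.061, limma), 0 members passed there, and the counts of rhythmic members stayed at 1 and 2 in the SIRT6 and 1 and 1 in the SIRT1 cohort.

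Counts over all genes moved by more than 1.5 times in these settings: the SIRT6 daily average to 2623 (array weights), 1507 (upper quartile) and 1555 (acute phase) from 880; the SIRT1 daily average to 775 (equal medians), 1044 (array weights) and 485 (upper quartile) from 302, and to 150 to 436 without single livers, the extremes being WT ZT0 replicates 3 and 1. Rhythmic genes went to 2565 (array weights) and 410 (F test) from 1349, to 480 from 1415 and to 1266 from 2440 by the F test. The 1 gene with a difference in rhythm in the SIRT6 cohort became 0 in several settings, 0 to 3 without single livers (beyond 1.5 times in 23 of 36 fits), 6 with array weights and 13 when adjusted over rhythmic genes alone.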
